A study of Mus musculus with 18 samples.

Results

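Mouse induced pluripotent stem cells of the clone KO#1, in which *Hmga2* is knocked out, were sequenced at 0 h and 24 h of their induction into epiblast-like cells (EpiLCs), and the libraries of both times are compared here. The comparison was chosen by label and held 6 of the 18 libraries of the series, 3 at 24 h and 3 at 0 h. The other libraries came from wt cells of 1 clone and from libraries labelled KO#2, again with 3 at each time. At 0 h the cells were undifferentiated, cultured on inactivated fibroblasts in GMEM with fetal bovine serum, LIF, the MEK inhibitor PD0325901 and the GSK3 inhibitor CHIR-99021. At 24 h they had been plated without feeders on Geltrex, in DMEM/F12 and Neurobasal medium with N2, B27, Activin A and bFGF, so that substrate, feeders, basal medium, serum, cytokines and inhibitors changed together with time and cannot be told apart. Both times of KO#1 carry the same knockout. KO#1 is 1 clone, and the position of its *Hmga2* deletion is not given in the sources used here. The replicates were described as independent biological replicates, and 3 against 3 libraries of 1 clone speak for that clone.

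Naive pluripotent cells resemble the epiblast of the blastocyst before implantation. LIF, acting through Stat3, and inhibition of MEK and GSK3 sustain a network of transcription factors that includes Nanog, Klf4, Esrrb and Tfcp2l1. When these factors are withdrawn, FGF acting through ERK, together with Activin, drives cells into a formative state like that of the epiblast after implantation, with Fgf5, Otx2 and the de novo DNA methyltransferases on. Germ layers and germ cells can arise from that state. Hmga2 is an AT-hook protein that binds the minor groove of AT-rich DNA and is made in early embryos.

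Total counts were 6358167, 4531798 and 14613617 at 0 h, and 22308889, 18640956 and 19177599 at 24 h. A level of 3 counts, taken as the smallest that can be detected, lay between 0.175 and 0.626 CPM across these 6 libraries. CPM are counts relative to library size, here the total times a TMM factor that is computed from the bulk of genes. Counts of protein-coding genes made up between 62.0% and 77.4% of the 0 h libraries and between 41.3% and 63.1% of the 24 h libraries. The most abundant gene at 24 h was Rn7s1, an RNA of the signal recognition particle, with 12.9% to 19.9% of counts. At 0 h it was Gm26917 in replicates 1 and 2, with 16.4% and 20.2%, and Rn7s1 in replicate 3, with 7.08%. Replicate 3 at 0 h stood apart. Across genes its log2 CPM correlated with those of its own group at 0.938 and 0.940, where replicates 1 and 2 correlated at 0.959, and it lay nearer to the 24 h libraries (0.904 to 0.919) than replicates 1 and 2 did (0.840 to 0.894). Its feeder fibroblast markers were lowest and the summed neural markers highest, at 173 CPM against 16.9 and 19 CPM, most of it from Tubb3.

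The labels were first checked against the targeted gene and against markers of the cell types. *Hmga2* RNA (ENSMUSG00000056758, chr10:120361275-120476469, minus strand, GRCm38) was measured at 10.2, 4.59 and 1.75 CPM at 0 h and 3.67, 2.25 and 0.871 CPM at 24 h. The 2 groups overlapped, and the difference was not called (log2 fold change -1.26 ± 0.66 SE, adjusted p = 0.133), although it was without replicate 3 at 0 h (adjusted p = 0.0392). In wt cells the gene stood at 17.4, 13.3 and 22.3 CPM at 0 h and at 5.86, 5.51 and 5.93 CPM at 24 h, above every KO#1 library of the same time. Since the position of the deletion was not known, counts over the whole gene could not show how much intact transcript was left. The summed level of 8 naive pluripotency markers was 4270.1, 4189 and 4049 CPM at 0 h and 1598, 1503 and 1972 CPM at 24 h, and that of 6 EpiLC markers was 1324, 1593 and 1437 CPM at 0 h and 1548, 1679 and 2557 CPM at 24 h. Pou5f1 and Sox2, described with the core factors below, were counted in both sums. Pou5f1 alone made up most of the EpiLC sum in every library, and most of the naive sum at 24 h. No marker of either list was at 0 in any of these libraries apart from Fgf5 in replicates 2 and 3 at 0 h. Feeder fibroblast markers summed to 685, 513 and 261 CPM at 0 h and to 92.9, 74.5 and 68.3 CPM at 24 h, over 18 genes. Markers of primitive endoderm (2.43 to 7.2 CPM in sum), trophoblast (1.04 to 5.47 CPM) and mesendoderm (6.17 to 12.8 CPM) stayed low at both times. The 4 neural markers summed to 43.2, 46.1 and 56.8 CPM at 24 h, above replicates 1 and 2 at 0 h and below replicate 3. In these bulk libraries, fewer cells of a type and less RNA per cell cannot be told apart.

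The first question was how far the transcriptome of KO#1 cells moved within 24 h of induction. Expression changed widely and about evenly in both directions. Of 16619 genes tested, 6774 (40.8%) were called at an adjusted p-value under 0.05 in edgeR's quasi-likelihood test, of which 3348 (20.1% of genes tested) rose and 3426 (20.6%) fell. The median size of a called change was 1.53 on the log2 scale, and 372 genes rose and 527 fell by at least 3. Scaling by library totals alone shifted the median over all tested genes from 0.00 to -0.78 and changed the split to 837 rises and 6494 falls, so changes are stated relative to the bulk of genes. Without replicate 1 at 0 h, 4573 genes were called.

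Among the largest rises of protein-coding genes of at least 10 CPM outside the gene lists, those described here were in genes at or below 1.25 CPM in every 0 h library. *Car4*, a membrane-anchored carbonic anhydrase, had no count in any 0 h library and stood at 13.5, 18.5 and 18.5 CPM at 24 h, at least 42.4-fold higher against a floor of 3 counts per library. *Psors1c2* was 422 times higher at 24 h, with a 95% counting interval of 75.3 to 16678, since the 0 h libraries held a single count. The Na,K-ATPase subunit gene *Atp1a4* was 127 times higher (43.0 to 615). *Tmem254b* had no count at 0 h and was at least 26.7-fold higher, with a wide standard error of 3.00 on the log2 scale; near-identical copies of this gene can share its reads. The adaptor *Dok2* (6.12) and *Prss50* (5.33) rose as well. *Tmem54* had 0, 0 and 4 counts at 0 h and the metallothionein *Mt3* 0, 0 and 5, so that their fitted log2 fold changes of 6.60 and 6.14 rest on replicate 3 and were 10.63 and 10.47 without it. That of *Prss50* was 6.43 without the same library.

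Among the largest falls of protein-coding genes outside the gene lists was *Lama1*, the laminin alpha chain of the early embryonic basement membrane, at 459, 260.0 and 147 CPM at 0 h and 4.33, 4.90 and 5.60 CPM at 24 h (log2 fold change -5.86 ± 0.49 SE, adjusted p = 4.15e-07). *Vegfa*, the vascular growth factor, was at 89.5, 62.4 and 69.1 CPM at 0 h and 2.20, 1.43 and 1.18 CPM at 24 h (log2 fold change -5.52 ± 0.38 SE, adjusted p = 4.51e-08). In both genes every 24 h library was far below every 0 h library. *Grin1*, an NMDA receptor subunit, fell by 7.86 and *Spic*, an ETS-family transcription factor, fell by 6.71 on the log2 scale (-5.62 without replicate 3 at 0 h). *Ly6g6e* fell by 6.46, the channel gene *Trpm1* fell by 5.97 and *Mitf*, the transcription factor of the pigment lineage, fell by 5.32. *Ubap1l* (-5.32), the glutathione-degrading enzyme gene *Chac1* (-4.85) and *Fam189a2* (-4.85) fell as well. The list members *Klf4* (-5.55), *Fos* (-5.35) and *Plagl1* (-4.90), described with their lists, fell by more than *Chac1*.

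The naive network went down. Of 14 naive pluripotency factors, 11 fell, 1 rose and 2 were not called, with a median log2 fold change of -2.94, beside 0.00 over all genes tested. *Klf4*, a target of Stat3, fell furthest and was measured at 254, 196 and 150.5 CPM at 0 h and 4.19, 3.07 and 5.41 CPM at 24 h (log2 fold change -5.55 ± 0.51 SE, adjusted p = 1.07e-06). *Nanog*, which holds cells in self-renewal, stood at 474, 593 and 957 CPM at 0 h and 113, 56.5 and 36.8 CPM at 24 h (log2 fold change -3.29 ± 0.50 SE, adjusted p = 0.000107). *Tfcp2l1*, a further target of LIF signalling, was at 1409, 1054 and 903 CPM at 0 h and 71.1, 66.2 and 70.4 CPM at 24 h (log2 fold change -4.02 ± 0.38 SE, adjusted p = 1.16e-06). In none of these 3 genes did the libraries of the times overlap. *Esrrb*, the nuclear receptor downstream of GSK3 inhibition, was at 747, 708 and 469.5 CPM at 0 h and 72.7, 74.6 and 101 CPM at 24 h (log2 fold change -2.95 ± 0.35 SE, adjusted p = 1.24e-05). *Tbx3* (-4.81), *Prdm14* (-4.03) and *Klf2* (-3.46) fell too. *Zfp42* (Rex1, 0.32) and *Nr0b1* (Dax1, 0.04) were not called. *Gbx2* was the member that rose, from 2.74, 1.46 and 1.75 CPM to 11.5, 13.5 and 14 CPM (log2 fold change 2.70 ± 0.48 SE, adjusted p = 0.000406).

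**Figure D1:**
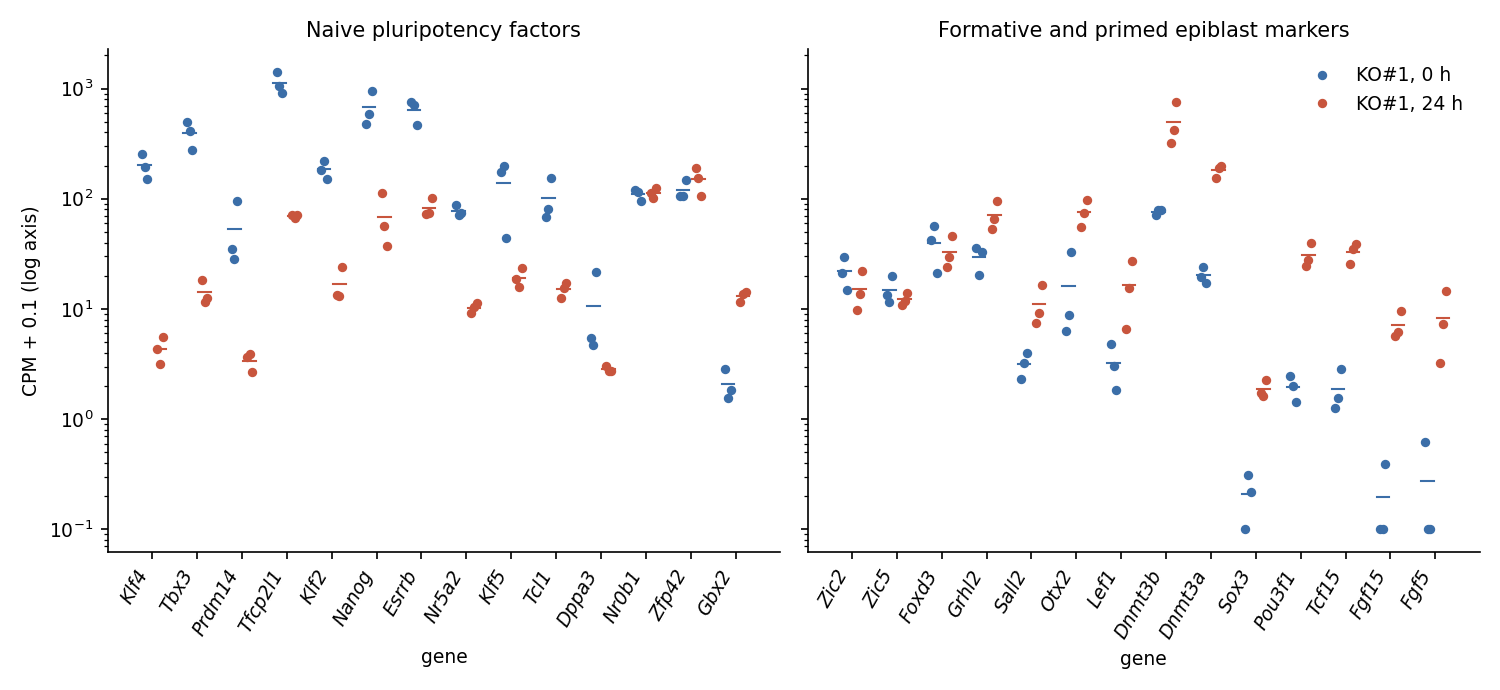
Levels of the 14 naive pluripotency factors (left) and the 14 formative and primed epiblast markers (right) in KO#1 cells, on a log axis of CPM + 0.1. Each point is 1 library, blue at 0 h and red at 24 h, and bars are group means. Points of both times lie apart for Klf4, Nanog and Tfcp2l1 on the left and for Dnmt3a, Dnmt3b and Pou3f1 on the right, and lie together for Nr0b1 and Zic5.

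Of 10 core factors shared by naive and primed cells, 4 (40%) rose, 2 (20%) fell and 4 were not called, beside 20.1% and 20.6% of all genes tested (median 0.40, and -0.43 with library totals alone). *Pou5f1* (Oct4), needed in both states, was at 1014, 1255 and 1109.6 CPM at 0 h and 1072, 1083 and 1527 CPM at 24 h, with overlapping times and no call (log2 fold change 0.12 ± 0.25 SE, adjusted p = 0.715). *Sox2*, its partner, fell from 229, 249 and 214 CPM to 69.8, 63.6 and 122 CPM (log2 fold change -1.44 ± 0.27 SE, adjusted p = 0.000616), and *Tcf7l1*, a repressor of the naive network, fell by 2.77 on the log2 scale. *Lin28a*, which encodes the RNA-binding protein that blocks let-7 maturation, rose from 6.12, 13.8 and 29.2 CPM to 201, 233 and 248 CPM (log2 fold change 3.77 ± 0.52 SE, adjusted p = 4.22e-05). *Utf1* rose by 2.05.

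The formative programme came on in the same libraries. Of 14 formative and primed epiblast markers, 11 rose, none fell and 3 (*Zic2*, *Zic5* and *Foxd3*) were not called, with a median of 2.58. *Fgf5*, the classical marker of the epiblast after implantation, had 4, 0 and 0 counts at 0 h and was at 3.16, 7.15 and 14.4 CPM at 24 h (log2 fold change 5.76 ± 0.88 SE, adjusted p = 0.000111). Its fold change rests on those 4 counts and ranged from 4.70 to 10.02 when 1 library was left out. *Pou3f1* (Oct6) was at 2.34, 1.88 and 1.34 CPM at 0 h and 24.6, 27.6 and 39.2 CPM at 24 h (log2 fold change 4.08 ± 0.42 SE, adjusted p = 2.77e-06). *Otx2*, which directs enhancer use on exit from the naive state, was at 6.25, 8.77 and 32.7 CPM at 0 h and 55.7, 73.9 and 96.3 CPM at 24 h (log2 fold change 2.20 ± 0.48 SE, adjusted p = 0.0019). The highest 0 h value of *Otx2* was that of replicate 3, and it remained below every 24 h value (3.34 without that library). The de novo DNA methyltransferase genes *Dnmt3a* and *Dnmt3b* rose by 3.18 and 2.72, the latter from 70.9, 78.3 and 79.1 CPM to 323, 424 and 758 CPM. *Tcf15* (4.10), *Fgf15* (5.43, and 9.74 without replicate 3, the only 0 h library with counts) and *Lef1* (2.44) rose, and *Sox3* was 18 times higher with a 95% counting interval of 5.92 to 89.3. Without replicate 3 at 0 h, 10 of 14 naive factors fell and 1 rose, and 11 of 14 formative markers rose.

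**Figure D2:**
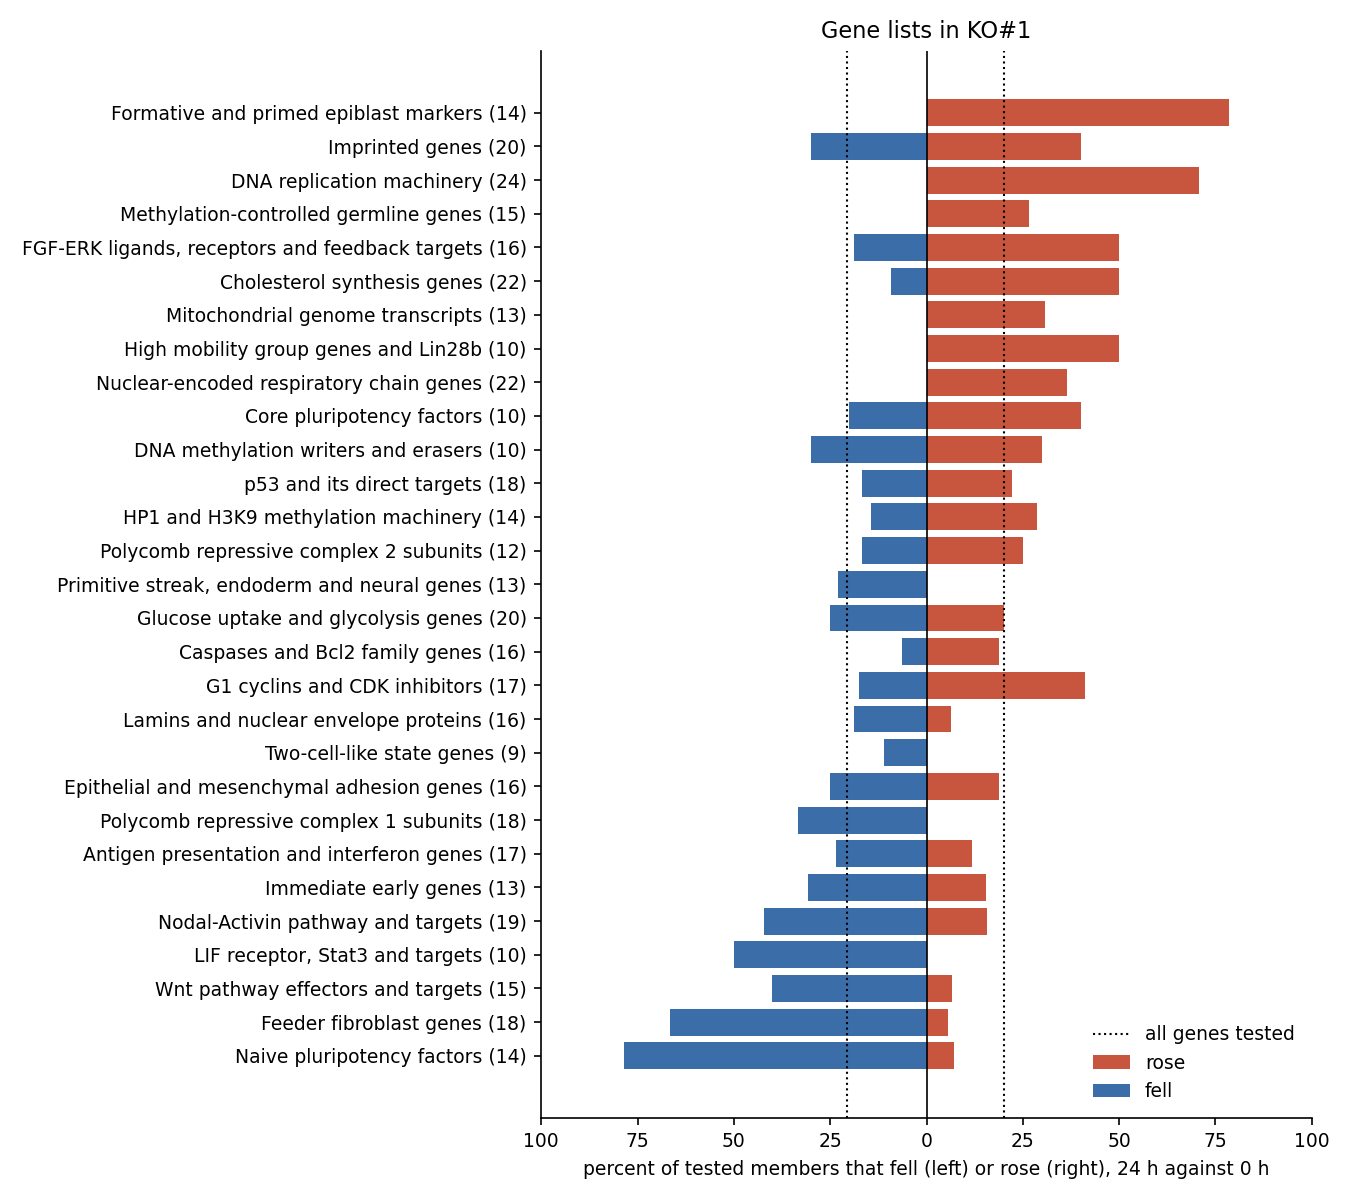
Share of the tested members of each gene list that fell (blue, left) or rose (red, right) at 24 h against 0 h in KO#1 cells, with the number tested in parentheses; lists are ordered by median log2 fold change. Dotted lines give the shares over all genes tested, 20.6% fallen and 20.1% risen, and the formative and naive lists stand at the ends.

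Of 10 genes of the LIF receptor, Stat3 and its targets, 5 (50%) fell, beside 20.6% of all genes tested, none rose and 5 were not called (median -0.77). Without replicate 1 at 24 h, 1 rose. *Socs3*, the feedback inhibitor that Stat3 induces, was at 63.7, 91.6 and 26.8 CPM at 0 h and 3.09, 2.86 and 5.22 CPM at 24 h (log2 fold change -4.00 ± 0.42 SE, adjusted p = 3.15e-06). *Stat3* itself fell by 2.22, the co-receptor gene *Il6st* fell by 1.95 and *Bcl3* fell by 2.34.

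FGF-ERK signalling induces feedback inhibitors of its own pathway. The 0 h medium held a MEK inhibitor and the 24 h medium bFGF, and ERK activity was not measured in these libraries. Of 16 tested genes of this list, 8 (50%) rose and 3 (18.8%) fell, beside 20.1% and 20.6% of all genes tested. The median of the list was 0.86 in KO#1 and -0.34 in wt cells. Among the ligands, *Fgf4*, made by pluripotent cells themselves, was not called (-0.17 ± 0.26 SE). *Fgf10* was at 4.56, 2.92 and 1.34 CPM at 0 h and had no count at 24 h, at least 12.4-fold lower. *Dusp6*, the phosphatase that inactivates ERK, was at 7.81, 7.51 and 5.31 CPM at 0 h and 122, 118 and 127 CPM at 24 h (log2 fold change 4.17 ± 0.31 SE, adjusted p = 1.61e-07). *Dusp4*, a nuclear phosphatase of the same family, was at 2.47, 0.626 and 1.11 CPM at 0 h and 37.4, 46.7 and 70.1 CPM at 24 h (log2 fold change 5.17 ± 0.48 SE, adjusted p = 1.07e-06). For both genes every 24 h library lay far above every 0 h library. The ETS factors *Etv4* (3.49) and *Etv1* (3.65) rose, while *Etv5* was not called (0.00). The Sprouty genes, which encode inhibitors of receptor tyrosine kinase signalling, rose in smaller steps. *Spry2* (chr14:105891947-105896819, minus strand, GRCm38) was at 20.3, 12.7 and 9.80 CPM at 0 h and 31.7, 32.1 and 40.7 CPM at 24 h (log2 fold change 1.29 ± 0.25 SE, adjusted p = 0.000833), and *Spry1* at 8.73, 7.30 and 6.30 CPM at 0 h and 12.5, 14.2 and 20.9 CPM at 24 h (log2 fold change 1.10 ± 0.29 SE, adjusted p = 0.00639). The count of falls rested on single libraries, since without replicate 1 or 2 at 0 h, or replicate 1 or 2 at 24 h, it was 1.

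Of 13 immediate early genes, 4 (30.8%) fell (*Fos*, *Jun*, *Egr1* and *Atf3*) and 2 (15.4%) rose (median -0.65), beside the 20.6% and 20.1% of all genes tested. The rises numbered 1 without replicate 2 or 3 at 0 h, or replicate 1 or 3 at 24 h. *Fos* was at 15, 9.81 and 19.4 CPM at 0 h and 0.294, 0.511 and 0.311 CPM at 24 h (log2 fold change -5.35 ± 0.91 SE, adjusted p = 0.000261), *Jun* fell by 2.26 and *Egr1* by 3.95, the last with an adjusted p-value of up to 0.0714 when a 24 h library was left out. *Myc* moved the other way, from 2.47, 3.76 and 1.28 CPM to 43.2, 51.8 and 59.5 CPM (log2 fold change 4.48 ± 0.46 SE, adjusted p = 2.44e-06).

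In the Nodal-Activin list, 8 of 19 tested genes (42.1%) fell and 3 (15.8%) rose, beside 20.6% and 20.1% of all genes tested (median -0.73). Without replicate 1 at 0 h or replicate 1 at 24 h, 5 fell. The ligand subunit gene *Inhba* fell by 2.43, the receptor gene *Acvr1b* fell by 2.55 and *Lefty2*, an antagonist that Nodal induces, fell by 2.32. *Skil*, a corepressor of Smad proteins, rose by 1.24, and *Gdf1* had no count at 0 h and was at least 4.00-fold higher. Of 15 Wnt pathway effectors and targets, 6 (40%) fell and 1 (6.67%) rose, beside 20.6% and 20.1% of all genes tested (median -0.97). Without replicate 3 at 0 h, 2 rose. The nuclear effector *Tcf7l2* fell by 2.85, the co-receptor *Lrp5* by 2.12 and the target *Cdx1* by 2.24, with an adjusted p-value of 0.0642 for *Cdx1* without replicate 1 at 0 h. *Wnt8a* rose by 2.13. Of 13 primitive streak, endoderm and neural genes tested, 3 (23.1%) fell, close to the 20.6% of all genes tested, and none rose. Without replicate 3 at 0 h 2 rose and 3 fell, and after thinning every library to the smallest total 6 were tested and none was called. The 3 falls were those of *Gsc* (-4.49), *Gata4* (-2.03) and *Sox1* (-1.76), each below 10 CPM in every library. At 24 h *Gsc* had counts only in replicate 1, and its fold change ranged from -8.56 to -3.51 when 1 library was left out.

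In a list of DNA methylation writers and erasers that leaves out *Dnmt3a* and *Dnmt3b*, 3 of 10 tested genes (30%) rose and 3 fell, beside 20.1% and 20.6% of all genes tested. *Dnmt3l*, the catalytically inactive cofactor of the de novo enzymes, rose from 239, 272 and 203 CPM to 595, 727 and 1145 CPM (log2 fold change 1.79 ± 0.30 SE, adjusted p = 0.000235), and the chromatin remodeller *Hells* rose by 2.29. The third rise was that of *Tdg*, the glycosylase that acts after the Tet enzymes. The demethylation enzymes *Tet1* (-1.72), *Tet2* (-1.74) and *Tet3* (-2.66) all fell. *Tet2* was at 483, 479 and 449 CPM at 0 h and 161, 151 and 111 CPM at 24 h (log2 fold change -1.74 ± 0.32 SE, adjusted p = 0.000572). Of 15 germline genes whose promoters are held silent by methylation, 4 (26.7%) rose, beside 20.1% of all genes tested, and none fell, among them *Stk31* (2.64) and *Ddx4* (2.12), and 9 rose without replicate 3 at 0 h. *Tdrd1* was 11 times higher (3.53 to 55.4), from 3 counts in all at 0 h. Of 9 genes of the two-cell-like state, 1 fell and none rose, with a median of -0.18. Without replicate 3 at 0 h the median was 1.06, 1 rose and none fell, and without replicate 2 at 24 h 2 fell.

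Genes of feeder fibroblasts were lower at 24 h, when no feeders were plated. Of 18, 12 fell and 1 rose (median -2.18). *Col1a1*, a chain of type I collagen, was at 166, 127 and 21.7 CPM at 0 h and 3.75, 3.58 and 5.16 CPM at 24 h (log2 fold change -4.64 ± 1.04 SE, adjusted p = 0.00216), with replicate 3 at 0 h lowest of its group. *Acta2* fell by 4.02 and *Lox*, which crosslinks collagen, fell by 2.85. The one rise, *Dcn* (2.21), lay at or below 2.79 CPM and lost its call without each of 3 libraries in turn (adjusted p up to 0.268). In wt cells the fibroblast markers summed to 534, 354 and 167 CPM at 0 h and 54.7, 36.8 and 45 CPM at 24 h. In the adhesion list, 3 of 16 genes rose and 4 fell, shares close to those of all genes tested. The epithelial genes *Epcam* (2.25), *Cldn6* (4.73) and *Esrp1* (4.43) rose, and *Fn1*, which encodes fibronectin and is made by fibroblasts too, fell from 2620.4, 1830.3 and 817 CPM to 128, 133 and 178 CPM (log2 fold change -3.59 ± 0.63 SE, adjusted p = 0.000328). The falls in that list numbered 1 or 2 without replicate 1 or 2 of either time. The part of the feeder markers in the falls of *Fn1* and of the collagen genes was not tested.

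Of 12 genes of the Polycomb repressive complex 2, which methylates H3K27, 3 (25.0%) rose and 2 (16.7%) fell, shares close to the 20.1% and 20.6% of all genes tested (median 0.16, and -0.62 with library totals alone), 1 rose without replicate 1 at 0 h, and 1 fell without that library or any of the 24 h libraries. The accessory subunit gene *Phf19* rose from 1.04, 2.50 and 2.86 CPM to 8.15, 11.6 and 20.1 CPM (log2 fold change 2.61 ± 0.51 SE, adjusted p = 0.00081). The catalytic *Ezh2* was not called (0.38 ± 0.24 SE). The core subunits *Eed* (1.06) and *Suz12* (-0.60) were called in opposite directions, and each call was lost without single libraries (adjusted p up to 0.112 and 0.0918). *Aebp2* fell by 1.13. Of 18 genes of Polycomb repressive complex 1, 6 (33.3%) fell, including *Phc3* (-2.24) and *Pcgf2* (-1.83), beside 20.6% of all genes tested, and none rose (median -0.42). In that list 3 fell without replicate 2 at 24 h, and 1 rose without replicate 3 of either time. Of 16 lamin and nuclear envelope genes, 1 (6.25%) rose and 3 (18.8%) fell, neither share above that of all genes. *Banf1* rose by 1.03, *Sun1* fell by 1.38 and *Lemd3* fell by 1.46, while *Lmnb1*, which encodes lamin B1, was not called (-0.24 ± 0.32 SE). The median of that list was -0.16, and 0.09 with offsets corrected for exon length, 3 rose and 5 fell without replicate 3 at 0 h, and 5 fell without replicate 3 at 24 h. Among 14 genes of HP1 and H3K9 methylation, 4 (28.6%) rose and 2 (14.3%) fell, again near the shares of all genes (median 0.29, and -0.55 with library totals alone), such as the HP1 genes *Cbx1* (1.05) and *Cbx3* (1.69; adjusted p = 0.0564 without replicate 1 at 24 h) and the H3K9 demethylase genes *Kdm4c* (1.65) and *Kdm4a* (-1.64), and 7 rose with offsets corrected for exon length. Of 10 genes of high mobility group proteins and Lin28b, 5 (50%) rose, *Hmgn2* by 1.29, beside 20.1% of all genes tested, and none fell (median 0.60, and -0.18 with library totals alone). In that list 2 rose without replicate 1 at 0 h and 3 without replicate 1 or 2 at 24 h, and 1 fell without replicate 3 at 0 h.

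Most DNA replication genes rose. Of 24, 17 rose and none fell, with a median of 0.95. This count was 10 without replicate 1 at 0 h and 1 with library totals alone, which shifted the median of all genes down. *Cdc6*, which loads the replicative helicase, was at 18.4, 24.2 and 36.3 CPM at 0 h and 97.6, 137 and 145 CPM at 24 h (log2 fold change 2.26 ± 0.30 SE, adjusted p = 3.58e-05). *Pcna*, the sliding clamp, rose by 1.65 and *Rrm1*, a subunit of ribonucleotide reductase, rose by 1.58. Smaller rises were those of *Mcm10* (1.21), the clamp loader gene *Rfc3* (1.38; adjusted p = 0.0566 without replicate 1 at 0 h), the thymidylate synthase gene *Tyms* (1.28), the polymerase gene *Pola1* (0.87) and the helicase gene *Mcm5* (0.70), and *Mcm6* (0.52) was not called. The calls of *Mcm5* and *Pola1* were each lost without 4 of the 6 libraries (adjusted p up to 0.136 and 0.135).

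Replication genes are known targets of E2F factors, so the 250 bases before their RefSeq start sites (GRCm38.p6) were searched on both strands for the E2F letters TTTGGCGC and for the ETS letters CCGGAAGT, which do not overlap each other. Letters of STAT, TCF/LEF, CRE, AP-1 and E-box sites were searched as well and are not shown. Of the 20 replication genes with such a window, 3 held the E2F letters and 4 held the ETS letters, beside 1 with CRE and 2 with E-box letters. The stretches around the matches are shown 5' to 3' on the gene's strand, with the match, or its reverse complement, in capitals, because most genes of this list rose. The genes with E2F letters were Mcm5 (chr8:75109310-75109417, plus strand), Mcm6 (chr1:128359706-128359865, minus strand) and Pola1 (chrX:93632236-93632343, minus strand), and those with ETS letters shown were Mcm10 (chr2:5012862-5012969, minus strand), Rfc3 (chr5:151651209-151651305, minus strand) and Tyms (chr5:30073626-30073701, minus strand).
Mcm5: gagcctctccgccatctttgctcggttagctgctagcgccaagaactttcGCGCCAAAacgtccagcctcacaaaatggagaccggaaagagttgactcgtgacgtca
Mcm6: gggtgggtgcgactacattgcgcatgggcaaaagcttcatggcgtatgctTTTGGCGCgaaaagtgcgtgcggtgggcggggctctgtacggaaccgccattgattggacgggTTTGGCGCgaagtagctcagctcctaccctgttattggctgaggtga
Pola1: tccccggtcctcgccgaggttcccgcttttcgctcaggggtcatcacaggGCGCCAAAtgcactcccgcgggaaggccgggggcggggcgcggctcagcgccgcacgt
Mcm10: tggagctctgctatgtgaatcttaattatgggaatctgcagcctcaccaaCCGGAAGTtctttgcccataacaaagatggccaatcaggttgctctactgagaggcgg
Rfc3: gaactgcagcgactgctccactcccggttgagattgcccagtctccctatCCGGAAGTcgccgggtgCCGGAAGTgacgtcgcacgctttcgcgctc
Tyms: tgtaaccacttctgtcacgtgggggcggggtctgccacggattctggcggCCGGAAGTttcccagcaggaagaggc

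Over all 10957 tested genes with a window, 0.904% held the E2F letters, against 0.930% of the genes that rose and 0.669% of those that fell. The ETS letters were in 6.29% of all windows, in 8.20% of those of genes that rose and in 4.14% of those of genes that fell. Mcm6 and Rfc3 each held 2 matches. These are descriptions of letters in a window, and a match does not show that a factor binds there.

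Of 17 genes of the G1 phase, 7 (41.2%) rose and 3 (17.6%) fell, beside 20.1% and 20.6% of all genes tested (median -0.05, between -0.80 and 0.26 across scalings and length offsets). *Ccne1* and *Ccne2*, the cyclins that open S phase, rose by 2.25 and 2.79. *Ccnd1*, a D-type cyclin, rose by 1.25. The CDK inhibitor *Cdkn1b* (p27) was at 36.5, 39.2 and 39.3 CPM at 0 h and 8.45, 7.66 and 9.58 CPM at 24 h (log2 fold change -2.16 ± 0.22 SE, adjusted p = 2.07e-06), *Cdkn1a* (p21) fell by 1.72, and the imprinted inhibitor *Cdkn1c* rose by 4.10, from 0.391, 0.209 and 0.525 CPM to 6.10, 4.70 and 11.2 CPM. Of 18 genes of the p53 list, 4 (22.2%) rose and 3 (16.7%) fell, beside 20.1% and 20.6% of all genes tested, such as *Bax* (1.49) and *Gdf15* (-2.71), the median of 0.33 was -0.52 with library totals alone, and 1 fell without replicate 1 at 0 h. Of 16 caspase and Bcl2 family genes, 3 (18.8%) rose and 1 (6.25%) fell, with a share of rises close to that of all genes. Without replicate 1 at 24 h 1 rose and 2 fell, and without replicate 3 at 24 h 3 fell.

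Of 20 genes of glucose uptake and glycolysis, 4 (20%) rose and 5 (25.0%) fell, shares close to the 20.1% and 20.6% of all genes tested (median 0.02, and -0.72 with library totals alone). The glucose transporter gene *Slc2a3* fell by 2.27, *Hk2* fell by 1.30 and *Ldhb* by 1.78, while *Pfkm* (1.73), *Eno1* (1.07) and the lactate exporter *Slc16a3* (1.96) rose. Of 22 cholesterol synthesis genes, 11 (50%) rose and 2 (9.09%) fell, beside 20.1% and 20.6% of all genes (median 0.75, and -0.01 with library totals alone), 7 rose without replicate 1 at 0 h and 17 without replicate 3 at 0 h, and 1 fell without any one library other than replicate 2 at 0 h. *Idi1* (2.07), *Fdps* (1.49) and *Hmgcs1* (1.20; adjusted p = 0.0505 without replicate 1 at 0 h) rose and encode enzymes of its early steps, and *Srebf2*, which encodes the transcription factor that controls the pathway, fell by 1.65. Of 22 nuclear genes of the respiratory chain, 8 (36.4%) rose, such as *Cox6c* (1.45), beside 20.1% of all genes, and none fell. In that list 2 or 3 rose without replicate 1 or 2 of either time, 4 with offsets corrected for exon length (median 0.44, and -0.35 with library totals alone). Of 13 transcripts of the mitochondrial genome, 4 (30.8%) rose, *mt-Co3* by 2.37, beside 20.1% of all genes. But 1 rose and 4 fell with offsets corrected for exon length, 2 rose without replicate 1 at 0 h or replicate 1 or 2 at 24 h, 2 fell without replicate 3 at 0 h, and 7 rose without replicate 3 at 24 h. Among 20 imprinted genes 8 (40%) rose and 6 (30%) fell, beside 20.1% and 20.6% of all genes. *Peg3* was at 44, 67 and 32.6 CPM at 0 h and 248, 299.6 and 455 CPM at 24 h (log2 fold change 2.81 ± 0.31 SE, adjusted p = 5.94e-06), *Mest* rose by 2.57 and *Nnat* by 3.63 (4.66 without replicate 2 at 0 h). *Plagl1* was at 102, 97.7 and 62.8 CPM at 0 h and 3.09, 2.66 and 2.99 CPM at 24 h (log2 fold change -4.90 ± 0.53 SE, adjusted p = 4.18e-06), and *Meg3* and *Igf2r* fell by 2.47 and 1.91. Of 17 antigen presentation and interferon genes, 2 (11.8%) rose and 4 (23.5%) fell, beside 20.1% and 20.6% of all genes tested, with *Irf1* at 1.85 and *Irf9* at -1.78, and 1 or 2 fell without replicate 2 at 0 h or replicate 1 or 2 at 24 h and 8 with offsets corrected for exon length.

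The calls moved with gene length. Protein-coding genes were ordered by summed exon length and divided into 5 equal parts. In the shortest (204 to 2401 bases) the median log2 fold change was 0.51, with 32.6% of genes risen and 9.89% fallen. In the longest (7555 to 123179 bases) it was -0.45, with 12.2% risen and 36.0% fallen. Medians of the same parts in wt cells were 0.67 and -0.45. Short nuclear RNAs rose as well, in 82 of 131 snoRNA genes and 28 of 50 snRNA genes, and so did 53 of 65 clustered histone genes and 50 of 83 cytosolic ribosomal protein genes. The part of length in the lists above was not tested beyond offsets corrected for exon length, under which the naive list had 11 falls, the formative list 11 rises and the replication list 18 rises.

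**Figure D3:**
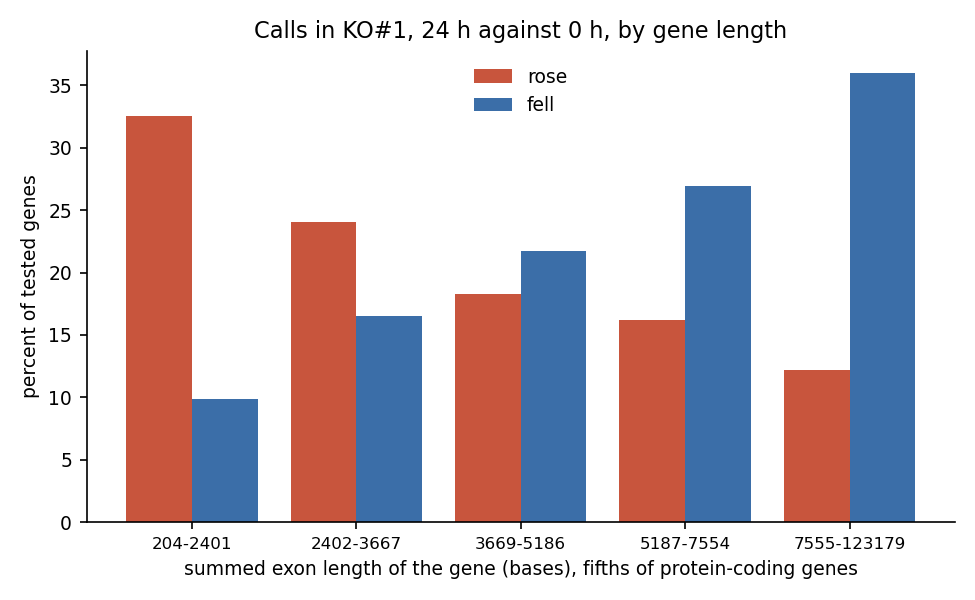
Percent of tested protein-coding genes that rose (red) or fell (blue) at 24 h against 0 h in KO#1 cells, by summed exon length in 5 equal parts. The share of rises runs from 32.6% in the shortest genes to 12.2% in the longest, and the share of falls from 9.89% to 36.0%.

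The second question was where the response of KO#1 differed from that of wt cells over the same 24 h. The difference was called in 65 genes (0.391% of genes tested), with 1679 at an unadjusted p under 0.05. This number depended on the settings, with 276 calls by DESeq2, 307 with no filter on low counts, 12 after thinning and 4 with library totals alone. The response was higher in KO#1 in 42 of these and lower in 23. Among the 42, 12 fell in wt cells and were not called in KO#1, 12 fell in both, 8 rose in KO#1 and fell in wt cells, 8 rose in KO#1 and were not called in wt cells, and 2 rose in both. Among the 23, 8 rose in wt cells and fell in KO#1, 6 rose in wt cells and were not called in KO#1, 6 fell in KO#1 and were not called in wt cells and 3 rose in both. Leaving out 1 library left between 6 and 39 calls, the lowest without replicate 2 of wt cells at 24 h.

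Feedback inhibitors of FGF signalling were among these genes. *Spry2* fell in wt cells from 159, 97.3 and 144 CPM to 52.1, 49.8 and 60.5 CPM, while in KO#1 it rose from 20.3, 12.7 and 9.80 CPM to 31.7, 32.1 and 40.7 CPM. The difference in response was 2.59 ± 0.35 on the log2 scale (SE; adjusted p = 0.00359) and held without each of the 12 libraries. The 24 h levels of KO#1 remained below those of wt cells. *Spry1* fell in wt cells from 10.2, 10.0 and 15.4 CPM to 3.93, 5.11 and 7.35 CPM and rose in KO#1, a difference of 2.23 ± 0.41 (adjusted p = 0.0291). For *Dusp6* (1.80, adjusted p = 0.0534) and *Dusp4* (1.85, adjusted p = 0.267), which rose in both, the difference was not called. No difference in response was called in the naive and formative lists, where the medians of wt cells were -4.24 and 3.46 beside -2.94 and 2.58 in KO#1.

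**Figure D4:**
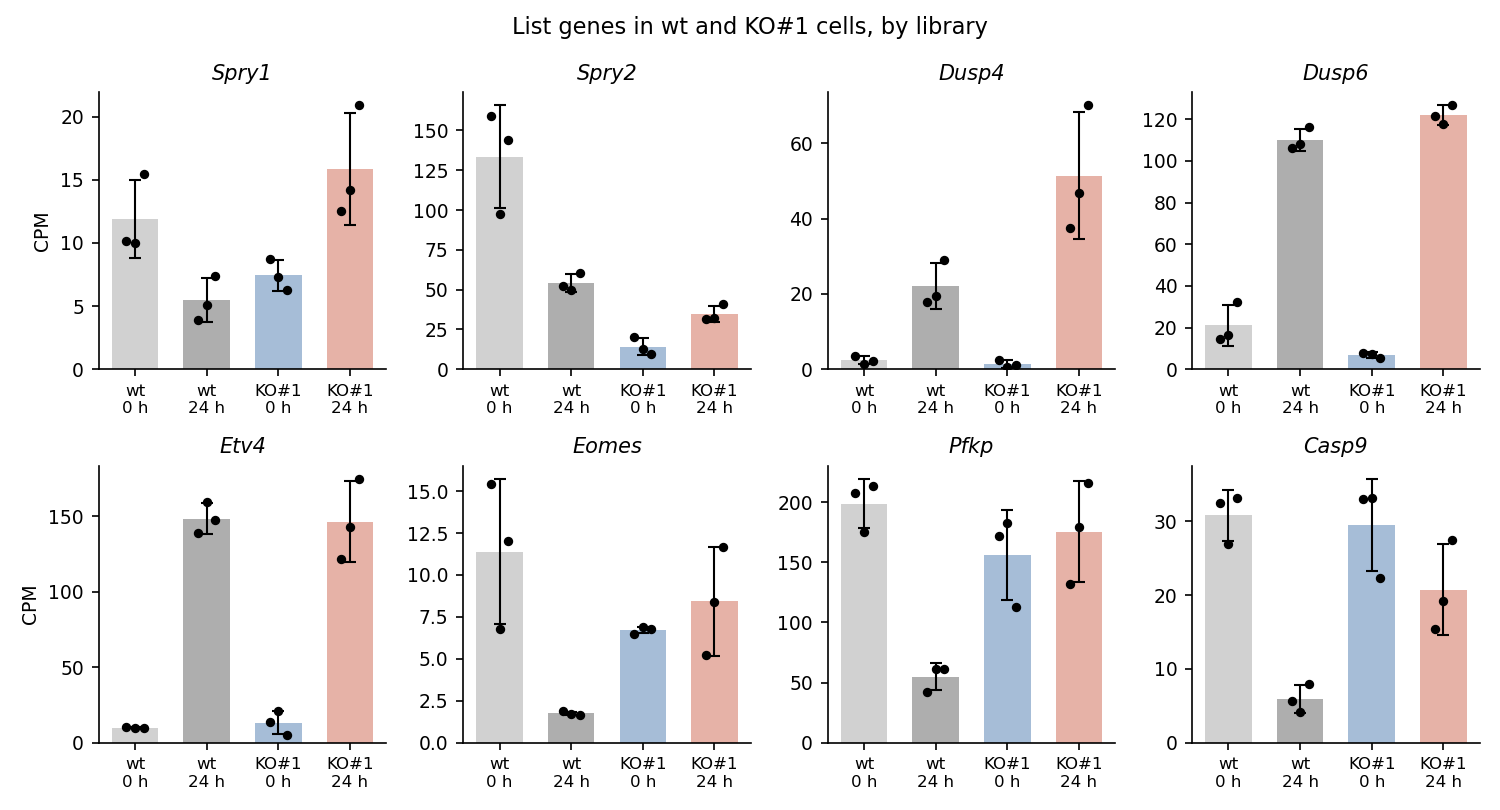
CPM of 8 list genes in wt (grey) and KO#1 (blue at 0 h, red at 24 h) cells; bars are means of 3 libraries, error bars are SD and points are libraries. Spry1 and Spry2 go down from 0 h to 24 h in wt cells and up in KO#1, and Eomes and Pfkp go down in wt cells while the times overlap in KO#1.

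*Smyd1*, which encodes a histone methyltransferase of muscle, showed the lowest difference. In KO#1 it fell from 19.4, 12.5 and 32.6 CPM to 8.15, 8.38 and 9.58 CPM, and in wt cells it rose from 1.64, 0.367 and 0.834 CPM to 8.27, 6.31 and 5.62 CPM. KO#1 and wt libraries did not overlap at 0 h and lay nearer to each other at 24 h, with a difference in response of -4.42 ± 0.60 (adjusted p = 0.00359). *Bcl2l15*, a member of the Bcl2 family, was at 0.391, 1.25 and 0.350 CPM at 0 h and 90.2, 61.5 and 31.7 CPM at 24 h in KO#1 and at or below 2.23 CPM in every wt library, a difference of 6.01 ± 1.05 (adjusted p = 0.0227). *Eomes*, a T-box factor of the primitive streak, fell in wt cells from 15.4, 6.79 and 12 CPM to 1.88, 1.70 and 1.67 CPM and was not called in KO#1, at 6.51, 6.89 and 6.77 CPM at 0 h and 5.22, 8.38 and 11.7 CPM at 24 h, a difference of 3.00 ± 0.49 (adjusted p = 0.0139). *Arhgef3*, an exchange factor for RhoA, rose in both but less in KO#1, from 14.3, 16.3 and 9.51 CPM to 17.5, 21.7 and 27.4 CPM, where wt cells went from 3.93, 5.14 and 6.17 CPM to 48.3, 48.4 and 57.7 CPM (-2.55 ± 0.39, adjusted p = 0.0103). *F2r*, the thrombin receptor, rose in KO#1 and fell in wt cells (2.37 ± 0.38). *Pfkp* (2.03) and *Casp9* (1.87), the platelet-type phosphofructokinase and the initiator caspase genes, fell in wt cells and were not called in KO#1.

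Among the other genes with a higher response in KO#1, *Spire2* (2.78), *2210011C24Rik* (2.70) and *Nefl*, the light neurofilament gene (2.54), rose in KO#1. *Kdelr3* (2.67) and *Bhlhe40* (2.26) fell in both and less in KO#1, and *Cyba* (2.15) was not called in KO#1. With a lower response, *Tmem47* (-2.74), *Trio* (-2.37), *Larp1b* (-2.02), the kinase gene *Sgk1* (-1.98), *Ankrd35* (-1.88) and *Ndfip1* (-1.55) fell in KO#1, and *Acsl4* (-1.98) rose in both. Of the 22 named differences, those of *Smyd1*, *Spry2* and *Arhgef3* were called when any one of the 12 libraries was left out. *F2r* and *Eomes* lost the call without replicate 1 or 2 of wt cells at 24 h, and each of the remaining ones without 4 or more libraries.

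**Figure D5:**
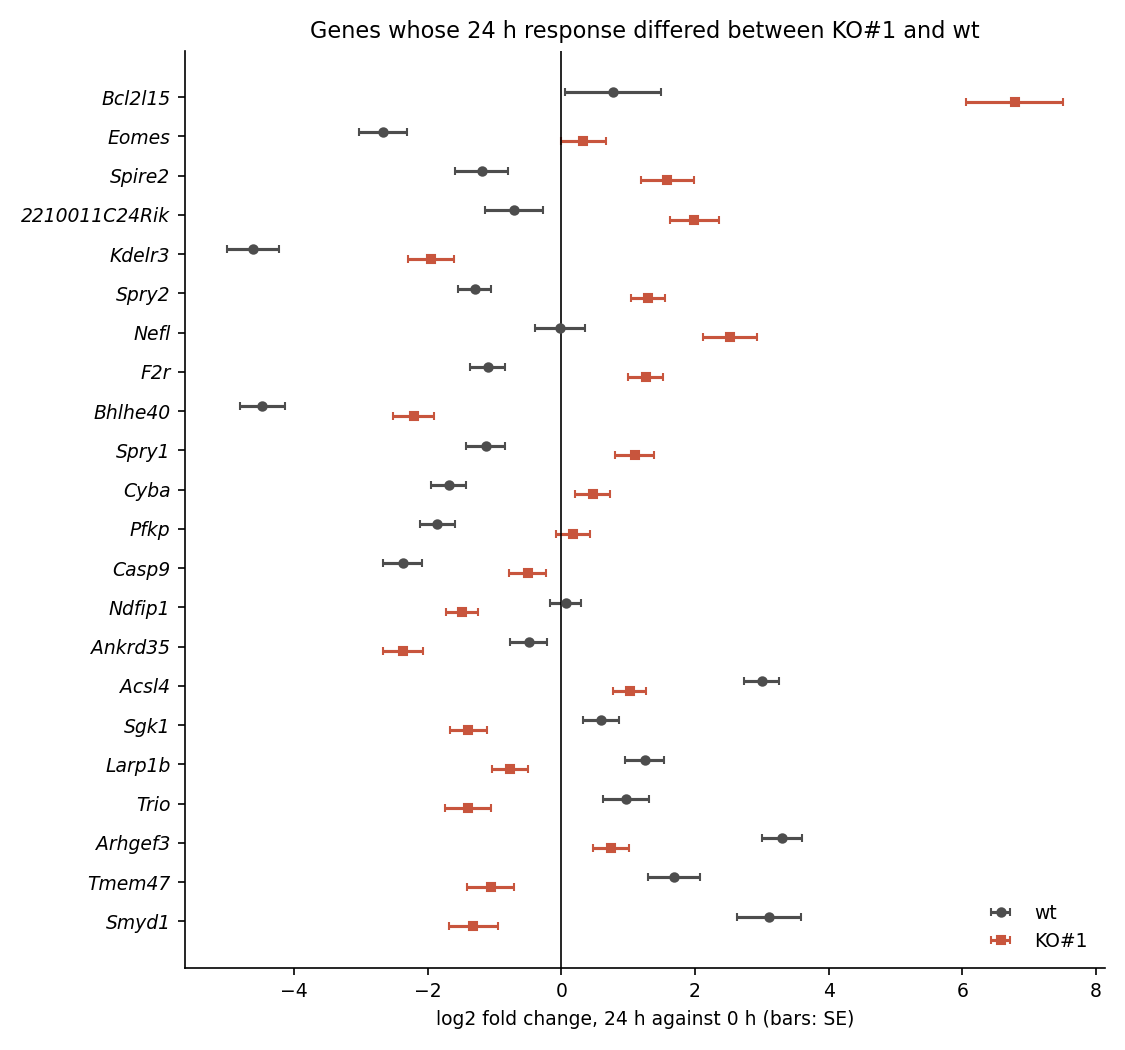
Log2 fold change at 24 h against 0 h with its SE in wt (grey circles) and KO#1 (red squares) cells for the 22 named genes whose response differed, ordered by the difference. In Spry2, Spry1, F2r and Spire2 the wt value is below 0 and the KO#1 value above it, and in Smyd1, Tmem47 and Trio the order is turned.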

How the data were processed

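Total RNA of mouse cells was sequenced in 18 libraries, assigned to 6 groups of 3 from their sample titles. The authors deposited counts, raw whole numbers of reads for each of 45706 genes. According to the study's methods, they made stranded libraries, trimmed reads with Trim Galore, removed ribosomal sequences, aligned to GRCm38 with STAR and quantified with Salmon and StringTie. The annotation release and the use of strand in counting are not given in the sources used here, so values of genes that overlap another, such as Hmga2, Eomes and Smyd1, are uncertain to that extent. Gene names and positions came from GENCODE M21, which matched 45143 identifiers.

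Genes were filtered with filterByExpr by group (minimum count 10), scaled by TMM and fitted for all 18 libraries together with edgeR 4.0.16 in R 4.3.3 (quasi-likelihood test). Calls used a Benjamini-Hochberg adjusted p-value under 0.05 over all genes tested, and each standard error was the absolute change over the root of its F statistic. The same fit gave the difference between the responses of KO#1 and wt cells. Intervals of ratios are exact 95% counting intervals and, like the floor of 3 counts, cover counting error only.

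Named genes were Hmga2, the members of 29 lists (466 of 467 genes found) and, by rule, among genes outside the lists, the largest changes with at least 10 CPM in one group and groups that do not overlap, those with the largest differences in response, and 3 noncoding genes in each direction. Some genes of the lists and of this rule are not reported here. The members and lists were chosen with earlier results of these data known. Alternatives were DESeq2 1.42.0, other scalings and filters, thinning, the replicate number as a block and leaving out each library. Offsets corrected for exon length, the fit without libraries labelled KO#2, in which Hmga2 RNA was not lower at every time, and the Atf4 list were added after seeing the data. Scripts were tested on simulated data.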

Additional observations from a re-analysis of the deposited data

Results flagged for a closer look

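The response to 24 h of induction differed between KO#1 and wt cells, by edgeR's interaction test at an adjusted p-value under 0.05, in 22 named genes. Differences are log2 fold changes of KO#1 minus those of wt cells. Higher responses in KO#1 were those of Bcl2l15 (6.01), Eomes (3.00), Spire2 (2.78), 2210011C24Rik (2.70), Kdelr3 (2.67), Spry2 (2.59), Nefl (2.54), F2r (2.37), Bhlhe40 (2.26), Spry1 (2.23), Cyba (2.15), Pfkp (2.03) and Casp9 (1.87). Lower responses were those of Smyd1 (-4.42), Tmem47 (-2.74), Arhgef3 (-2.55), Trio (-2.37), Larp1b (-2.02), Sgk1 (-1.98), Acsl4 (-1.98), Ankrd35 (-1.88) and Ndfip1 (-1.55). Smyd1, Spry2 and Arhgef3 kept the call without each of the 12 libraries in turn, with adjusted p-values of at most 0.0213, 0.0211 and 0.0357. F2r and Eomes reached 0.0557 without replicate 2 of wt cells at 24 h. The other 17 lost the call without 4 to 12 of the libraries.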

How the results depend on the processing

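Of the rises and falls at 24 h, 3999 (1917 and 2082) passed an adjusted p-value under 0.01. Library totals alone gave 837 rises and 6494 falls, and at least 10 counts in every library left 2169 rises. Leaving out 1 library gave 4573 to 7160 calls, with 2146 to 3666 rises and 2427 to 3494 falls. DESeq2 called 7396 genes and the fit with the replicate number as a block 6936. Deviations of same-numbered KO#1 libraries correlated at -0.16, -0.01 and -0.21 between the times, and no 0 h library correlated best with its own number. These values cover KO#1 only and cannot show whether libraries pair between lines. At 24 h, protein-coding percents by replicate were 50.49, 41.34 and 63.08 in KO#1 and 58.25, 41.6 and 63.36 in wt cells. They share an order, which those at 0 h did not. Pairing between lines was not tested beyond the replicate block. The differences in response from wt cells numbered 5 (4 higher, 1 lower) at an adjusted p-value under 0.01, 4 (2 and 2) with library totals alone, 307 (198 and 109) with no filter, 12 (6 and 6) after thinning to the smallest total, 276 (192 and 84) with DESeq2 and 50 with the replicate block. The lower responses numbered 8 with only the libraries compared, which for these differences is one fit with that without the libraries labelled KO#2. Leaving out 1 library gave 6 to 39, with 4 to 31 higher and 2 to 11 lower. The cause of these shifts was not tested.

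With library totals alone the fold changes turned to -0.413 for Eomes, -0.731 for Etv5, -0.405 for Ezh2, -0.0699 for Mcm5, -0.243 for Mcm6, -0.74 for Nr0b1, -0.587 for Pfkp, -0.623 for Pou5f1 and -0.539 for Zfp42, while the median of all genes was -0.78. With at least 10 counts in every library they were -0.0497 for Etv5 and -0.0144 for Nr0b1, after thinning -0.0719 for Etv5, and with length offsets -0.235 for Nr0b1 and -0.0493 for Pou5f1. Leaving out 1 library gave -0.00063 to 0.573 for Eomes, -0.328 to 0.261 for Etv5, -0.427 to 0.123 for Fgf4, -0.0504 to 0.107 for Nr0b1, -0.0144 to 0.332 for Pfkp and -0.0759 to 0.202 for Pou5f1. Over all settings, 2410 values of named genes at 24 h kept direction and call, 61 lost the call, 8 gained one and 24 changed sign, while 329 differences in response kept, 210 lost and 7 gained it. Apart from Mcm5, none of these 10 genes was called in the main setting. Libraries of 0 h held 4531798 to 14613617 counts, which limits genes near the floor of 3 counts.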

Other observations

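A list of Atf4 and its targets in the response to amino acid and endoplasmic reticulum stress was put together after its values were seen, and carries no test as a list. Of its 12 genes, 11 fell at 24 h in KO#1, with a median log2 fold change of -2.08 (0.00 over all genes tested), and 11 fell without replicate 3 at 0 h. Ddit3 (CHOP), a transcription factor of the stress response, was at 27.4, 28.6 and 15.9 CPM at 0 h and at 1.84, 1.02 and 2.49 CPM at 24 h. Atf4 itself fell by 1.35, the pseudokinase gene Trib3 fell by 2.89, the asparagine synthetase gene Asns fell by 1.51, the amino acid transporter gene Slc7a5 fell by 2.19, Ddit4 fell by 2.25 and Herpud1 fell by 2.37.

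Among noncoding genes, the pseudogene Rpl35a-ps4 had no count at 0 h and was at 12.0, 12.4 and 11.9 CPM at 24 h, at least 30.4-fold higher, and Platr5 (5.72) and Gm16201 (5.38) rose. Platr5 had 0, 1 and 11 counts at 0 h and was at 7.80 without replicate 3. The pseudogene Gm6311 (-8.32) was at 43.2, 111 and 0.642 CPM at 0 h and had 6, 0 and 0 counts at 24 h, with a fold change from -12.64 to -7.09 when 1 library was left out. Gm12896 was at -6.53 (-4.07, adjusted p = 0.0549, without replicate 2 at 0 h) and RP24-79A6.9 was at -6.44. Reads of pseudogenes can be shared with their parent genes. Of 443 genes awaiting experimental annotation (TEC), 18 rose and 104 fell, with a median of -1.63, and of 74 sense intronic genes 3 rose and 22 fell. Over all genes tested, 20.1% rose and 20.6% fell. Casp9 was called without replicate 3 at 24 h (adjusted p = 0.0441) and not in the whole data.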
